A study of Macaca mulatta with 30 samples.

Results

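Fetal lung at 6 h after a maternal injection of Beta-Ac was compared directly with fetal lung at 5 days after the same injection, in 6 of the 30 RNA libraries of the study. Members were taken by library label: animals 16-123, 16-131 and 17-254 at 6 h, and animals 16-128, 16-130 and 16-136 at 5 days. Beta-Ac is betamethasone-acetate, the slow-release ester of the synthetic glucocorticoid betamethasone, and was given to the pregnant rhesus macaque as a single intramuscular injection of 0.125 mg/kg. All fetuses were wild type, each library held total RNA from whole lung of 1 fetus, and the lung labels give a single age range, gestational day 124 to 130, for every library. The hippocampus labels of the 5-day animals and the study's account of delivery give later days, and the lung labels do not say whether their range is that of treatment or of collection. They give no sex or hour of collection for each animal. The other lung groups were 3 saline fetuses, 3 fetuses at 4 h and 3 at 5 days after the clinical drug (Celestone, a mixture of betamethasone-phosphate and Beta-Ac, 0.25 mg/kg). The 5-day Beta-Ac animals also gave hippocampus libraries whose treatment field names the clinical drug while their titles and the lung labels name Beta-Ac. Groups here follow the lung labels.

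Betamethasone crosses the placenta and binds the glucocorticoid receptor, a transcription factor held ready in the cytoplasm by heat shock proteins and co-chaperones. The bound receptor enters the nucleus and switches on genes within hours, among them genes that limit its own signal. In the fetal lung glucocorticoids are known to thin the tissue between air spaces, to promote surfactant and fluid clearance, and to prepare the organ for air breathing. The comparison asks which transcripts of the fetal lung differ between the first hours and day 5 after the same drug and dose.

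Libraries held 19.6 to 28.2 M counted reads at 6 h and 25.3 to 27.2 M at 5 days. Transcripts of SFTPB, SFTPC, NKX2-1, AGER and SCGB1A1, which mark surfactant-producing, alveolar and airway epithelium, were present in all 6. The groups did not form separate clusters over all 17644 tested genes. The mean Euclidean distance of log2 CPM (reads per 1 M reads after TMM normalization) was 83.7 within the 6 h group, 83.5 within the 5-day group and 85.1 between them. On the first principal component of the 6 libraries, with 32% of the variance, animal 17-254 lay at 59.3 and the other 5 between -37.6 and 5.23. This is also the only animal of the 6 whose number begins with 17. Its blood cell markers, 9 tested genes led by alpha globin, summed to 859 CPM, against 166 and 169 in the other 6 h animals and 81.4 to 392 at 5 days. None of the 9 markers was without reads, and the part of blood in the results was not tested.

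Between 6 h and 5 days after Beta-Ac 46 genes were differentially expressed, 0.261% of those tested. These were 40 genes higher at 6 h (0.227%) and 6 genes lower at 6 h (0.0340%). A gene was called by edgeR's quasi-likelihood test where its p was under 0.05, its Storey q under 0.1 and its fold change 1.5 or more. The test was fitted to all 15 lung libraries, so that saline and clinical drug animals informed the spread between animals but not either mean. Fitted to the 6 Beta-Ac libraries alone the test called 9 genes, of which 7 were among the 46, and fitted to the 12 steroid-treated libraries it called 19. DESeq2 called 182 genes, among them all 46. Without adjustment 1396 genes had a p under 0.05, 776 of them higher and 620 lower at 6 h. The median log2 fold change was 1.22 over the 40 genes, -1.27 over the 6 genes and 0.0095 over all tested genes.

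In all 46 genes the 3 libraries of one time lay beyond the 3 libraries of the other. Over all tested genes this held for 13.0%, in either direction. The 46 genes were called on these same libraries, so their separation is no added support. Of the 46 genes 34 carry a gene symbol, and the others are known here only by their Ensembl identifier. In bulk tissue, more transcript per cell and more cells of a type cannot be told apart.

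**Figure D1:**
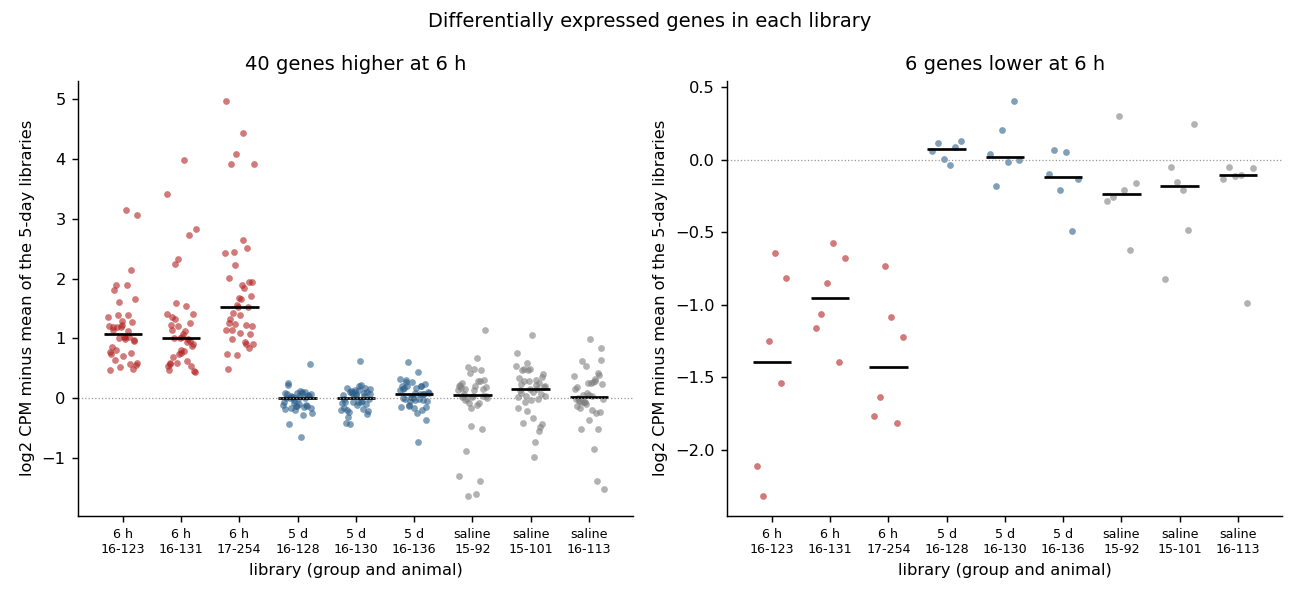
Each point is 1 differentially expressed gene in 1 library, as log2 CPM minus the mean of the 3 libraries at 5 days, with the 40 genes higher at 6 h on the left and the 6 genes lower on the right. Black bars are medians over the genes. On the left the medians of the 6 h animals were 1.08, 1.00 and 1.52, highest in 17-254, while 5-day and saline animals lay near 0.

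Known glucocorticoid targets had the highest median of the gene lists examined. FKBP5 encodes a co-chaperone that lowers the affinity of the receptor for its hormone, and is itself induced by the receptor. FKBP5 (ENSMMUG00000011520) had 18.9, 31.2 and 106 CPM at 6 h in animals 16-123, 16-131 and 17-254. At 5 days it had 5.78, 6.48 and 6.19 CPM, and saline animals had 5.27 to 5.83 CPM. The groups were widely separate, and the spread was among the 6 h animals, with 17-254 far above the other two. Its log2 fold change was 3.08 (standard error, SE, 0.48, edgeR q = 0.0278). Without 17-254 the log2 fold change was 2.03, and the call was lost without any 1 of the 5-day animals, with q between 0.132 and 0.172.

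ZBTB16 is a zinc finger transcription factor. ZBTB16 (ENSMMUG00000007085) measured 101, 86.4 and 183 CPM at 6 h against 10.2, 13.4 and 12.8 CPM at 5 days, a log2 fold change of 3.35 (SE 0.41, edgeR q = 0.00624). The lowest 6 h animal was far above the highest 5-day animal, and the call held with each of the 6 animals left out. PER1, a repressor of the circadian clock that glucocorticoids also switch on, had 454, 506 and 619 CPM at 6 h and 184, 165 and 172 CPM at 5 days. The PER1 log2 fold change was 1.60 (SE 0.28, edgeR q = 0.0503), with little spread inside either group. Its call was lost without 17-254 or any 1 of the 5-day animals. MAOA, which breaks down monoamine neurotransmitters and is outside the rule by which genes were chosen for naming, had 150, 159 and 238 CPM at 6 h and 70.0 to 84.7 CPM at 5 days. MAOA rose by 1.27 on the log2 scale (edgeR q = 0.0132) and kept its call in all 6 omissions.

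Of 34 listed glucocorticoid targets 20 were matched and tested. Of these 5 passed the test, all higher at 6 h, namely FKBP5, ZBTB16, PER1, MAOA and PDK4, against 0.227% of all tested genes. All 20 fold changes were positive, where 51.6% of all tested genes were, and the list median was 0.93 on the log2 scale against 0.0095. Without 17-254 the list median was 0.567. The remaining members did not pass the test. NFKBIA, an inhibitor of NF-kappaB, had 172, 224 and 342 CPM at 6 h and 111 to 145 CPM at 5 days (log2 fold change 0.94, edgeR q = 0.108). GLUL, glutamine synthetase, gave 0.92 (q = 0.127) and CRISPLD2 gave 1.08 (q = 0.13) on the same scale, both with separate groups. SGK1, a kinase that acts on sodium channels, differed by 0.03 with a standard error of 0.41, its levels overlapping across the times.

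The receptor itself did not pass the test. NR3C1, the glucocorticoid receptor, had 88.8, 75.7 and 87.6 CPM at 6 h and 83.6, 90.3 and 86.4 CPM at 5 days, a log2 fold change of -0.05 (SE 0.15, edgeR q = 0.851). Of 14 tested receptors, chaperones and cofactors FKBP5 alone was called, higher at 6 h, against 0.227% of all tested genes. The list median was 0.07.

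**Figure D2:**
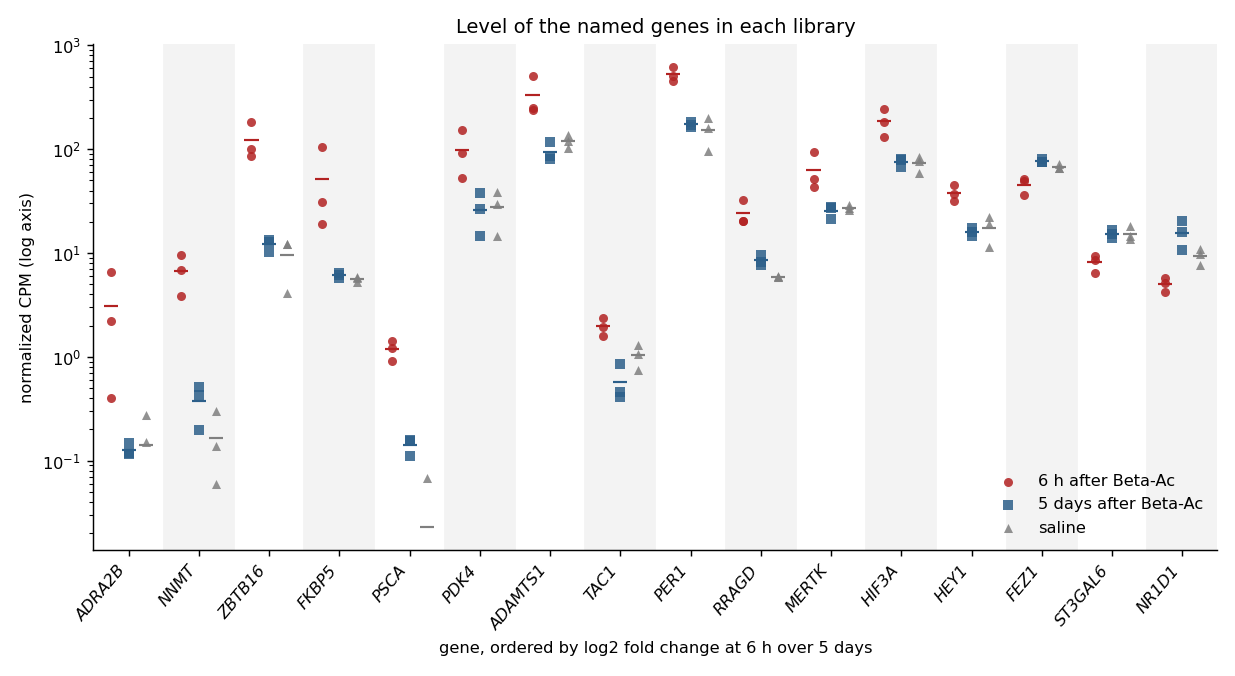
Normalized CPM on a log axis of the 16 differentially expressed genes chosen by rule, in 3 libraries each of 6 h Beta-Ac (circles), 5-day Beta-Ac (squares) and saline (triangles). Horizontal bars are group means. Saline libraries at 0 CPM, 1 for ADRA2B and 2 for PSCA, cannot be drawn on this axis. Circles and squares are apart for every gene, with the widest spread of circles for ADRA2B and FKBP5.

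The list of fasting and energy metabolism held 2 called genes. NNMT, nicotinamide N-methyltransferase, spends methyl groups on nicotinamide and is tied to energy balance. NNMT (ENSMMUG00000007086) had 3.85, 6.90 and 9.55 CPM at 6 h and 0.195, 0.424 and 0.516 CPM at 5 days. Its log2 fold change of 4.14 (SE 0.51, edgeR q = 0.00624) was held with each animal left out, and the lowest 6 h library was still far above the highest 5-day library. PDK4 switches off pyruvate dehydrogenase and so spares glucose in fasting. PDK4 (ENSMMUG00000021389) had 90.9, 53.4 and 153 CPM at 6 h against 26.3, 37.5 and 14.7 CPM at 5 days, with a log2 fold change of 1.92 (SE 0.40, edgeR q = 0.0903). Both groups varied, and the PDK4 call held only without 16-131, not in the other 5 omissions.

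Of 34 tested genes of fasting and energy metabolism 2 were called, NNMT and PDK4, both higher at 6 h, against 0.227% of all tested genes. Positive fold changes were seen in 28 of the 34, where 51.6% of all tested genes had one, with a median of 0.38, or 0.201 without 17-254. This list shares members with that of glucocorticoid targets, among them TXNIP, GLUL, PDK4 and ANGPTL4, so the lists are not separate observations. FOXO3 (log2 fold change 1.11, edgeR q = 0.271) and CPT1A (0.70, edgeR q = 0.241), a transcription factor of fasting and the entry enzyme of mitochondrial fat burning, had separate groups without passing the test.

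RRAGD and HIF3A were in none of the lists. RRAGD is a Rag GTPase that carries the amino acid signal to mTORC1. RRAGD (ENSMMUG00000015262) had 20.5, 20.2 and 32.7 CPM at 6 h and 7.70, 9.49 and 8.26 CPM at 5 days, a log2 fold change of 1.53 (SE 0.28, edgeR q = 0.0632). HIF3A, a hypoxia-inducible factor that restrains other members of its family, had 185, 131 and 243 CPM at 6 h and 80.3, 79.5 and 67.5 CPM at 5 days, a log2 fold change of 1.30 (SE 0.24, edgeR q = 0.0632). For both genes all 6 h animals were clear of all 5-day animals, and both calls were lost without 17-254 or any 1 of the 5-day animals.

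ADRA2B, an alpha-2 adrenergic receptor, had the largest fold change of the 46. ADRA2B (ENSMMUG00000011842) had 0.405, 2.19 and 6.61 CPM at 6 h and 0.117, 0.116 and 0.147 CPM at 5 days, the latter from 10 reads in all. The log2 fold change of 4.54 carried a standard error of 0.93 (edgeR q = 0.0903), and animal 16-123 lay near the level at 5 days. It ranged from 3.33 without 17-254 to 5.05 without 16-123, and the call was lost without 17-254 or any 1 of the 5-day animals. TAC1, the precursor of substance P, had 1.92, 1.59 and 2.36 CPM at 6 h and 0.860, 0.463 and 0.406 CPM at 5 days, a log2 fold change of 1.76 (SE 0.36, edgeR q = 0.0903). Saline animals had 0.753 to 1.31 CPM of TAC1. Their mean lay between those of the 2 times, and their range overlapped that of the 5-day animals. Its call held only without 16-131.

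PSCA, a surface protein anchored by a lipid tail, had 0.911, 1.42 and 1.21 CPM at 6 h and 0.156, 0.154 and 0.111 CPM at 5 days (log2 fold change 3.03, SE 0.62, edgeR q = 0.0903). Reads were few, and the PSCA call held in none of the 6 omissions. PSCA reached the minimum of 7 reads in 3 libraries only through the 6 h animals, where it was high, so that its call carries no support, and it fell below the minimum with any 1 of them left out. It is kept in the counts of 40 and 46, and no other gene of the 46 fell below the minimum in an omission. MERTK, a receptor tyrosine kinase through which phagocytes take up dying cells, had 51.2, 43.5 and 93.9 CPM at 6 h against 27.3, 27.7 and 21.2 CPM at 5 days, a log2 fold change of 1.30 (SE 0.24, edgeR q = 0.0632). The MERTK groups were separate with 17-254 highest, and its call was lost without 17-254 or any 1 of the 5-day animals. Of 17 tested macrophage and granulocyte genes none passed the test, and their median was 0.02.

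In the matrix and vessel wall, single genes rose while most list members did not pass the test. ADAMTS1, a secreted protease that cleaves proteoglycans, had 239, 249 and 504 CPM at 6 h and 85.8, 81.2 and 117 CPM at 5 days. ADAMTS1 (ENSMMUG00000013407) gave a log2 fold change of 1.81 (SE 0.25, edgeR q = 0.0132) that was called in all 6 omissions. It was the only one called of 34 tested genes of extracellular matrix and myofibroblasts, whose median was 0.01. Of all tested genes 0.227% were called higher at 6 h. HEY1, a repressor downstream of Notch in arterial endothelium, had 37.1, 32.0 and 45.6 CPM at 6 h and 14.5, 17.4 and 15.9 CPM at 5 days. HEY1 (ENSMMUG00000002740) had a log2 fold change of 1.26 (SE 0.22, edgeR q = 0.0503), also called in the fit of the 6 Beta-Ac libraries alone, but not without 17-254 or any 1 of the 5-day animals.

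HEY1 was the only one called of 36 tested genes of endothelium and angiogenesis, against 0.227% of all tested genes called higher at 6 h. Of the 36 genes, 26 had a positive fold change, where 51.6% of all tested genes did, and the median was 0.23. The summed level was 8837 to 9247 CPM at 6 h and 8074 to 8443 CPM at 5 days. In saline animals it was 9210 to 9892 CPM, above all 5-day animals and not below the 6 h animals as a group. Without adjustment 12 of the 36 had a p under 0.05 with 6 h higher, among them VWF, TEK, TIE1 and PECAM1, where 4.4% of all tested genes did. With 6 h lower there were 4, against 3.51%. VWF, the clotting glycoprotein of endothelium, had 757, 659 and 865 CPM at 6 h and 404, 478 and 588 CPM at 5 days (log2 fold change 0.63, edgeR q = 0.417). ESM1, a proteoglycan of endothelial tip cells, had 1.26, 1.73 and 1.06 CPM at 6 h and 2.54, 5.75 and 3.24 CPM at 5 days (log2 fold change -1.49, edgeR q = 0.24). Neither passed the test.

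Of the genes with a symbol, 3 fell at 6 h relative to 5 days. NR1D1, also called REV-ERB alpha, is a nuclear receptor that represses the clock activator ARNTL. NR1D1 (ENSMMUG00000002933) had 5.16, 5.73 and 4.24 CPM at 6 h and 16.1, 20.1 and 10.8 CPM at 5 days, a log2 fold change of -1.63 (SE 0.35, edgeR q = 0.0965). The times were separate, but this q was near the threshold and the call was lost in each of the 6 omissions. The saline animals had 7.63 to 10.8 CPM, so that 2 of the 3 animals at 5 days lay above and all 6 h animals below them. ST3GAL6, which adds sialic acid to glycoproteins, had 8.60, 9.45 and 6.46 CPM at 6 h and 16.7, 15.2 and 13.8 CPM at 5 days (log2 fold change -0.89, SE 0.17, edgeR q = 0.0632). FEZ1, an adaptor for transport along microtubules, had 49.1, 51.6 and 36.2 CPM at 6 h and 74.8, 76.0 and 79.6 CPM at 5 days (log2 fold change -0.75, SE 0.12, edgeR q = 0.0336). Both were separate between the times. FEZ1 was no longer called without any 1 of the 5-day animals, and ST3GAL6 was lost without these or without 17-254.

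Of 20 tested clock genes PER1 and NR1D1 passed the test, in opposite directions, against 0.261% of all tested genes in either direction. Of the 20 fold changes 10 were positive and 10 negative. With edgeR p under 0.05 before adjustment, 3 of the 20 were higher at 6 h, against 4.4% of all tested genes. These were NFIL3, PER1 and HLF. Likewise 5 were lower at 6 h, against 3.51%, namely CIART, NR1D2, TEF, NR1D1 and DBP. The labels give no hour of collection, and its part was not tested. Other clock genes with separate groups did not pass. DBP, a clock-driven transcription factor, had 20.6, 22.0 and 13.5 CPM at 6 h and 40.8, 29.8 and 32.6 CPM at 5 days (log2 fold change -0.88, edgeR q = 0.165). NR1D2, the close relative of NR1D1, had 12.6, 13.5 and 14.7 CPM at 6 h against 23.3 to 25.3 CPM at 5 days (log2 fold change -0.83, edgeR q = 0.533). ARNTL had 42.2, 55.8 and 49.4 CPM at 6 h and 26.5, 41.7 and 31.4 CPM at 5 days (log2 fold change 0.57, edgeR q = 0.59).

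Since few falls were called, the genes of lowest p that met every criterion but the call were also read. HSPB8, a small heat shock protein, had 171, 165 and 164 CPM at 6 h and 224, 241 and 213 CPM at 5 days, a log2 fold change of -0.44 with an edgeR q of 0.0632, under the fold change required. SYTL2, which tethers secretory vesicles, had a value of -0.51 on the log2 scale (edgeR q = 0.0661), and C1H1orf198 one of -0.58 (edgeR q = 0.0858). All 3 had separate groups and none reached a fold change of 1.5.

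The gene with the lowest q was ENSMMUG00000001030, which has no symbol here and was named after its values were seen. It had 44.0, 43.7 and 49.7 CPM at 6 h and 23.1, 17.3 and 19.7 CPM at 5 days (log2 fold change 1.19, SE 0.12, edgeR q = 0.00155). Its animals agreed closely within each time, and it was called in all 6 omissions. Further genes named after their values were seen include LAMB1, a laminin chain of basement membranes, with 1146, 1187 and 1856 CPM at 6 h and 687 to 732 CPM at 5 days (edgeR q = 0.0632).

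PIK3R1, the regulatory subunit of phosphoinositide 3-kinase, had 185, 174 and 211 CPM at 6 h and 81.9, 87.7 and 104 CPM at 5 days (log2 fold change 1.06, edgeR q = 0.0629). LEPR, the leptin receptor, had 28.7, 28.9 and 29.9 CPM at 6 h and 14.5, 13.0 and 14.9 CPM at 5 days (log2 fold change 1.05, edgeR q = 0.0903). Both were also called in the fit of the 6 Beta-Ac libraries alone, although LEPR lost its call in each omission from the fit of all lung libraries. The other rises with a symbol were SYBU, HECW2, RACGAP1, SEC14L2, CSRNP1, PHF19, FLRT3, PRX, TSC22D1, ARHGAP10, BOC, TSPAN14, SAMHD1 and CCDC85A.

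Surfactant and type 2 cell genes gave no call among 16 tested, with 7 positive fold changes and a median of -0.14. Their summed level was 11920 to 17910 CPM at 6 h and 15130 to 17930 CPM at 5 days. In saline animals it was 9906 to 14690 CPM, below all 5-day animals, a position given with no test. SFTPB, which spreads the surfactant film, had 4339, 3023 and 5947 CPM at 6 h and 4416, 4531 and 5066 CPM at 5 days (log2 fold change -0.07, SE 0.21). SFTPC, the protein most restricted to type 2 cells, had 7053, 3912 and 5925 CPM at 6 h and 5488, 4403 and 5624 CPM at 5 days (log2 fold change 0.12, SE 0.27). In both genes the 6 h animals spread across the 5-day animals. Without 16-131 the list median was 0.116. SFTPD, a surfactant lectin, had 1222, 975 and 1146 CPM at 6 h and 1267, 1382 and 1793 CPM at 5 days (log2 fold change -0.41, edgeR q = 0.546), separate but not called.

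Lipid synthesis likewise gave no call among 23 tested genes, with 7 positive fold changes and a median of -0.21. The lowest p belonged to enzymes of cholesterol synthesis. HMGCS1 had 62.6, 66.1 and 60.6 CPM at 6 h and 97.7, 93.9 and 78.9 CPM at 5 days (log2 fold change -0.51, edgeR q = 0.122). SQLE had 16.3, 24.4 and 23.4 CPM at 6 h and 50.3, 36.5 and 41.3 CPM at 5 days (log2 fold change -0.997, edgeR q = 0.192). All 6 h animals were below all 5-day animals for both, without passing the test. Sodium channel and lung fluid genes, 17 tested, and alveolar type 1 cell genes, 10 tested, had no call and medians of 0.06 and -0.01.

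**Figure D3:**
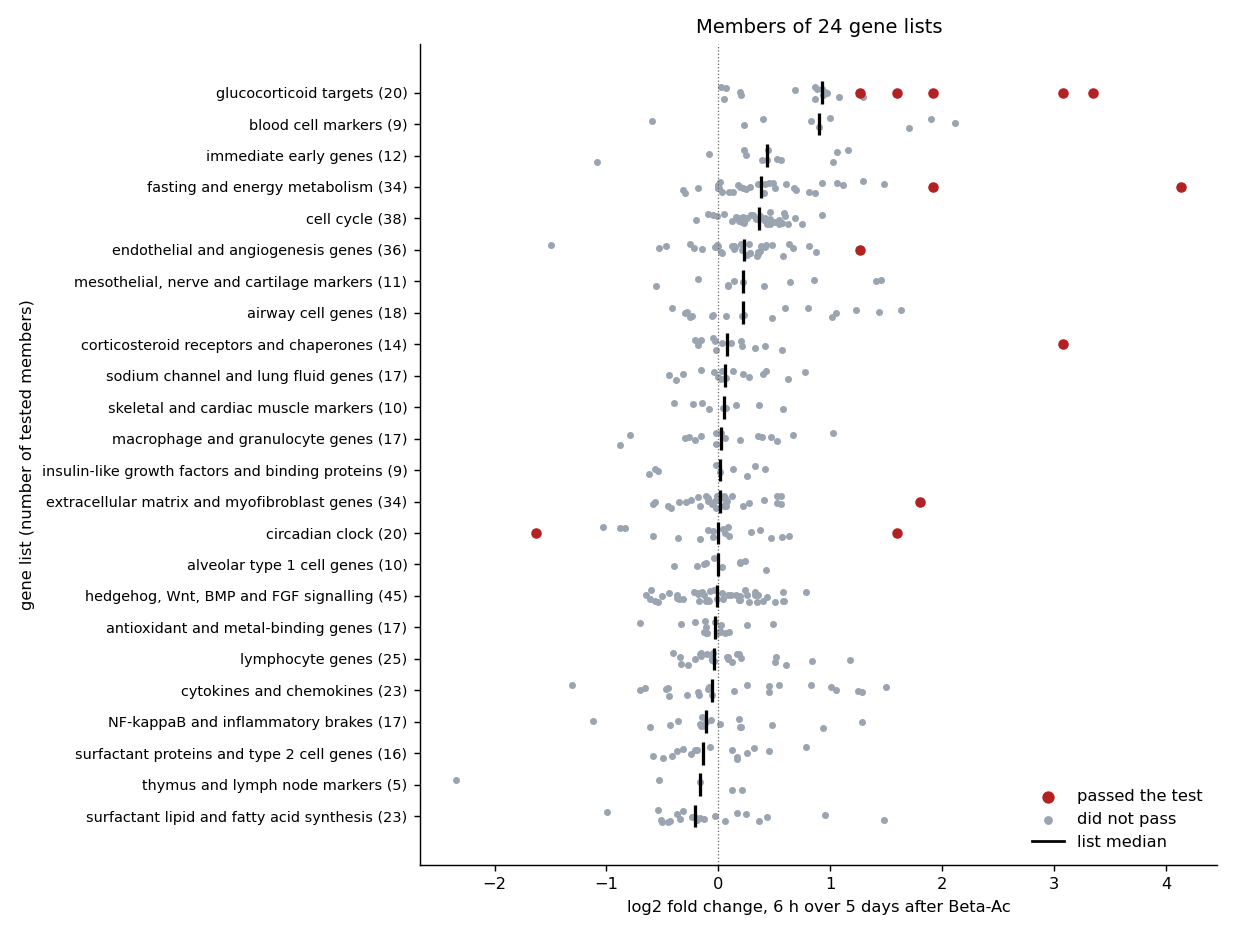
Log2 fold change of every tested member of 24 gene lists, 6 h over 5 days after Beta-Ac. Large red points passed the test, small grey points did not, and black bars are list medians, with lists ordered by them. Glucocorticoid targets had the highest median, 0.93, and 5 red points. Most lists held none and had medians near 0.

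Of 38 tested cell cycle genes none was called, while 34 fold changes were positive, against 51.6% of all tested genes, and the median was 0.37. Their summed level was 701, 849 and 875 CPM at 6 h and 672, 693 and 740 CPM at 5 days, so that the groups overlapped, and 769 to 917 CPM in saline animals. TOP2A, the topoisomerase of dividing cells, had 31.8, 38.6 and 46.1 CPM at 6 h and 24.0, 28.2 and 23.6 CPM at 5 days (log2 fold change 0.62, edgeR q = 0.471). RACGAP1, a component of the dividing cell's spindle midzone that is in none of the lists, passed the test at 1.12 on the log2 scale (edgeR q = 0.0434).

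Immune lists gave no call either. Medians were -0.04 for 25 lymphocyte genes, -0.06 for 23 cytokines and chemokines and -0.11 for 17 genes of NF-kappaB and its brakes. The cytokine median was 0.279 without 16-123. Of 12 tested immediate early genes, which respond within minutes to handling and other stimuli, none was called, 10 were positive (51.6% of all tested genes) and the median was 0.44, or 0.206 without 17-254. Developmental signals of the hedgehog, Wnt, BMP and FGF families had 45 tested members, no call and a median of -0.01. Insulin-like growth factors and binding proteins (9 tested, median 0.02) and antioxidant and metal-binding genes (17 tested, median -0.03) had none.

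Marker lists of other tissues were read for what the lung pieces held, and none had a called member. Airway genes summed to 318, 381 and 698 CPM at 6 h and 811, 148 and 339 CPM at 5 days, with a median of 0.22 over 18 genes. Blood markers had a median of 0.90 over 9 genes, which was -0.279 without 17-254. Muscle (10 genes, 0.05), mesothelium, nerve and cartilage (11 genes, 0.22) and thymus and lymph node (5 genes, -0.16) made up the rest. Their part in the results was not tested.

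Saline animals entered the estimate of spread but neither mean of the comparison, and their levels were set beside both times. Of the 40 genes higher at 6 h, the saline mean lay nearer to 5 days in 38, and of the 6 lower genes in all 6, against 58.4% of all tested genes. Among genes with separate libraries that were not called, it did so in 61.7% of those higher and 60.7% of those lower at 6 h. Saline was nearer to 6 h for LEPR, with 19.9 to 29.4 CPM, and for FLRT3, an adhesion protein, with 156 to 169 CPM. In 37 of the 40 every 6 h animal was above every saline animal, which held for 9.03% of tested genes, and in 6 of 6 lower genes every 6 h animal was below, which held for 7.28%. The median of saline minus 5 days was 0.07 on the log2 scale over the 40 genes, and that of 6 h minus saline 1.11.

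The 5-day level was not always that of saline. All 5-day animals lay below all saline animals for 7 of the 40 genes, SYBU, RACGAP1, LEPR, PHF19, FLRT3, TSC22D1 and CCDC85A, where 6.4% of tested genes did. They lay above for RRAGD and, on few reads, PSCA, where 5.73% did. Saline RRAGD was 5.87 to 6.02 CPM. These are positions of libraries, given with no test.

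The 6 h animals differed among themselves. Animal 17-254 was the highest of the 3 in 33 of the 40 genes higher at 6 h, 16-131 in 4 and 16-123 in 3. Over all tested genes these shares were 40.2, 30.3 and 29.4%. Medians over the 40 genes above the 5-day mean were 1.52, 1.00 and 1.08 on the log2 scale in the same order. The standard deviation of log2 CPM was larger at 6 h than at 5 days in 30 of the 40 genes, where it was in 55.3% of tested genes. Its medians were 0.366 and 0.155 over the 40 genes, and 0.224 and 0.189 over all tested genes. The 40 genes were chosen on these same libraries, so their spread is not independent of the choice. Among the genes not led by 17-254 were PSCA, PHF19, FLRT3, PRX, BOC and CCDC85A. The 17-254 library was also the one with the highest blood markers, and whether these values are linked was not tested.

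Leaving out 17-254 left 11 genes called, of which 10 were among the 46. Leaving out 16-131 raised the count to 98 with 40 of the 46 kept, and leaving out 16-123 raised it to 63 with 31 kept. Counts were 8, 10 and 5 without 16-128, 16-130 and 16-136, of which 7, 7 and 5 were among the 46. ADAMTS1, MAOA, ZBTB16, NNMT and ENSMMUG00000001030 were called in all 6 omissions, and all 46 kept their direction wherever they were tested.

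**Figure D4:**
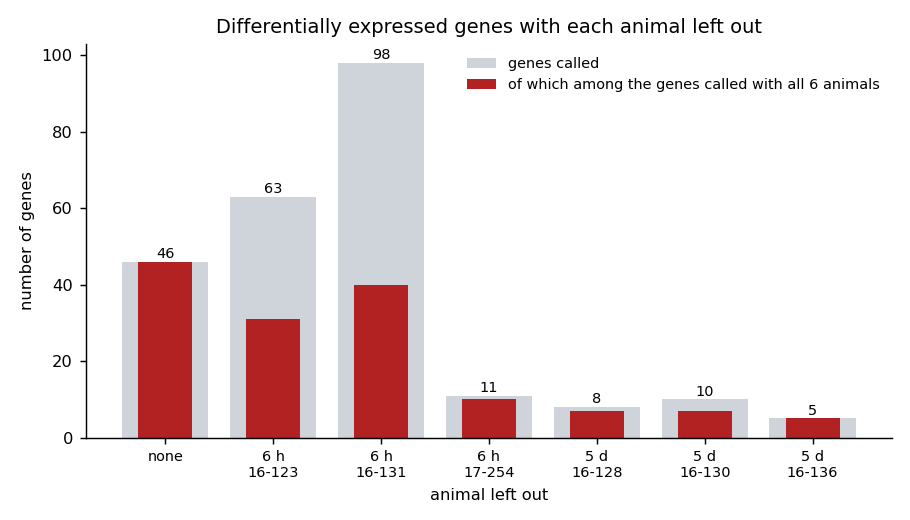
Number of genes called between 6 h and 5 days after Beta-Ac with no animal or 1 animal left out of the fit of all lung libraries. Grey bars are all genes called, and red bars those also called with all 6 animals. The count rose to 98 without 16-131 and fell to 5 without 16-136.

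The clinical drug gave the same kind of comparison, 4 h against 5 days, in 6 other animals, with a dose of 0.25 mg/kg, a fast-acting phosphate ester in the mixture and an earlier first time. Drug, dose and time differ together and cannot be told apart, and the 4 h animals carry numbers beginning with 15 and the 5-day animals numbers beginning with 16. Of the 46 genes, 38 were called in the same direction for the clinical drug, 33 of the 40 higher and 5 of the 6 lower. The background was 4.47% of tested genes higher and 5.92% lower at 4 h, 1833 genes in all. The 38 shared genes are 82.6% of the Beta-Ac calls and 2.07% of the clinical drug calls. None was called in opposite directions. Medians over the 40 and the 6 genes were 1.53 and -1.70 with the clinical drug, against 1.22 and -1.27 for Beta-Ac, and the clinical drug's change was the larger in 28 of the 40.

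Over the 46 genes, which were chosen on the Beta-Ac values, the fold changes of the drugs had Pearson's r of 0.825 and a Spearman rank coefficient of 0.767. Over all tested genes r was 0.183. The points are genes, not independent replicates. The 2 comparisons share no animal but do share normalization, the read filter and each gene's estimate of spread. Their shared calls are therefore not independent of each other. NNMT had a log2 fold change of 5.47 with the clinical drug and 4.14 after Beta-Ac, FKBP5 had 4.80 and 3.08, and PDK4 had 3.36 and 1.92. ZBTB16 had 3.93 and 3.35, and PER1 had 2.08 and 1.60. ADRA2B, at 3.51 and 4.54, and ADAMTS1, at 1.30 and 1.81, had the larger value for Beta-Ac. Of these 7 genes none passed the test of the difference between the drugs, where edgeR q was 0.177 to 0.545.

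The early over 5-day change differed between the drugs in 416 genes, 2.36% of those tested, and in 8 of the 46. One of the 8 is PSCA, whose levels were near 0 in both clinical drug groups, so that its difference is not read. RRAGD rose with both, by 2.97 and 1.53 on the log2 scale (difference -1.45, edgeR q = 0.0839). ARHGAP10 had 2.00 and 0.75 (difference -1.26, edgeR q = 0.0287). PRX, periaxin, had 1.83 and 0.82 (difference -1.01, edgeR q = 0.0505), and CCDC85A had 1.41 and 0.60 (difference -0.81, edgeR q = 0.0421). FEZ1 fell by 1.51 with the clinical drug and by 0.75 with Beta-Ac (test of the difference, edgeR q = 0.0569).

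The lowest p of the difference belonged to genes outside the 46. PALLD, an actin-binding scaffold, had 229, 280 and 255 CPM at 6 h and 254, 251 and 284 CPM at 5 days after Beta-Ac (log2 fold change -0.04), against a log2 fold change of 1.17 for the clinical drug (difference between the drugs, edgeR q = 0.0048). ST3GAL1, a sialyltransferase, gave 0.19 and -1.37 (difference 1.56, edgeR q = 0.0048). RALGDS, an exchange factor for Ral GTPases, gave 0.09 and -1.08 (difference 1.17, edgeR q = 0.00504). In these 3 genes the clinical drug gave a call and Beta-Ac did not.

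**Figure D5:**
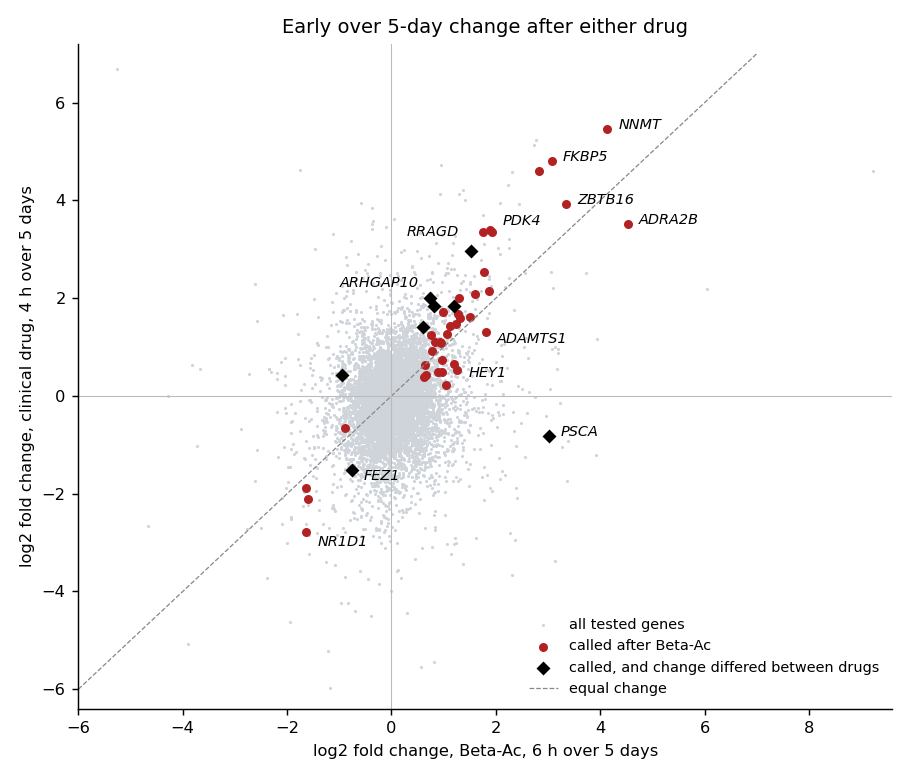
Log2 fold change of each tested gene for Beta-Ac (6 h over 5 days, horizontal) and the clinical drug (4 h over 5 days, vertical). Red points are genes called for Beta-Ac, black diamonds the 8 of them whose change differed between the drugs, grey points all tested genes, and the dashed line equal change. Most red points lie above the line on the right. The diamond farthest below it is PSCA, whose clinical drug value compares levels near 0.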

How the data were processed

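RNA from whole fetal lung was sequenced from 15 rhesus macaques, 3 in each of 5 groups. The authors mapped paired-end reads of 75 bp to build MMUL1.0 and deposited whole-read counts per Ensembl gene, without normalization or filter. The paper names Bowtie 2, whereas the submitters' processing notes for lung name Bowtie 1.2.1.1, and counting was done with featureCounts 1.5.1. Strand is not given in the sources used here, so overlapping genes and close paralogs may share reads.

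From these counts, 17644 of 30246 genes were tested, those reaching 7 reads in 3 or more of 15 libraries. Tests were run in edgeR 4.0.16 under R 4.3.3, with TMM scaling, a single quasi-likelihood fit of 15 libraries with group as the only term, and q values by Storey's method. Levels are normalized CPM and fold changes use a prior count of 0.125. Standard errors were taken from the F statistic. Principal components and distances were computed on log2 CPM with a prior count of 2. The procedure was run on simulated counts with known changes, where no called change had the wrong sign. These counts held no animal set apart from its group, so they do not show how calls depend on single animals. Replicates of a time differed far beyond counting error, so precision is set by the spread between animals. The p-values set each difference against a spread between fetuses that was estimated over all 15 libraries. Depth was 19.6 to 28.2 M reads in the 6 Beta-Ac libraries. Animals carry no replicate numbers that pair the times.

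Symbols were matched by Ensembl identifier for 70.6% of tested genes. Among the 34 called genes with a symbol, neighbours were read from the RefSeq table of assembly T2T-MMU8v2.0, and no coordinates or sequences were used. Named genes were the 12 largest rises and falls with a symbol, separate libraries and a mean of at least 1 CPM in the higher group, with falls filled to 6 by the lowest p among genes not called. FKBP5, ZBTB16, PER1, KLF9 and NR3C1, in each list the called gene with the largest change, and the 3 called genes of lowest p for the difference between drugs were added. KLF9 was not matched to an identifier. The comparison, the gene lists and the named genes were chosen with earlier results of these data known, so no list is independent evidence.

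Alternatives were RLE normalization, edgeR's filterByExpr, no filter, Benjamini-Hochberg adjustment, no fold-change threshold, fits of 12 or 6 libraries, DESeq2 1.42.0 and each animal left out. The hippocampus counts were not used.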

Additional observations from a re-analysis of the deposited data

Results flagged for a closer look

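The early over 5-day change differed between Beta-Ac and the clinical drug in 416 genes by edgeR's test of the difference itself, in which drug, dose and early time differ together. This count was 66 without clinical drug animal 16-115 at 5 days and 1034 without clinical drug animal 15-81 at 4 h. It was 175 without 16-123, 148 without 16-130, 69 without 16-136, 211 without 15-85, 127 without 16-120 and 197 without 16-126.

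Among the named genes and the 46 genes called for Beta-Ac, the differences (Beta-Ac log2 fold change minus that of the clinical drug) that passed were positive for PSCA (3.84), ST3GAL1 (1.56), RALGDS (1.17) and FEZ1 (0.755). They were negative for RRAGD (-1.45), ENSMMUG00000003135 (-1.37), ARHGAP10 (-1.26), PALLD (-1.215), PRX (-1.01), CCDC85A (-0.81), SYTL2 (-0.748), ENSMMUG00000001030 (-0.64) and C1H1orf198 (-0.61). PSCA reached the read minimum only through the 6 h Beta-Ac libraries and was near 0 CPM in both clinical drug groups, so its difference carries no support. SYTL2 and C1H1orf198 were not called for Beta-Ac. FEZ1 fell with both drugs, so its positive difference is a smaller fall with Beta-Ac.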

How the results depend on the processing

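No paired analysis was possible because the columns carry animal numbers that pair no animals across the times. No called gene changed direction under any setting run, whereas the list medians of blood markers, of cytokines and of surfactant and type 2 cell genes changed sign without 17-254, 16-123 and 16-131, respectively. The 46 calls became 29 with Benjamini-Hochberg adjustment, 19 in the fit of the 12 steroid-treated libraries, 9 in the fit of the 6 Beta-Ac libraries and 182 with DESeq2. With RLE normalization, filterByExpr, no filter and no fold-change threshold they were 45, 47, 60 and 54. The split of 40 higher to 6 lower was 38 to 7 with RLE normalization, 131 to 51 with DESeq2 and 72 to 26 without 16-131. With 1 animal left out the count lay between 5 and 98. Called list members, 9 with all libraries, numbered 4 in the fit of 6 libraries, 25 with DESeq2 and 4 to 17 with 1 animal left out. Saline was nearer to 5 days for 95.7% of the called genes, for 77.5% of those of DESeq2, and for 80 to 100% with 1 animal left out. The 1833 calls of the clinical drug became 3306 without a fold-change threshold and 1256 to 2413 with 1 animal left out. The 416 calls for the difference between drugs became 205 with no filter, 253 with Benjamini-Hochberg adjustment and 797 with DESeq2, and 66 to 1034 with 1 animal left out. The cause of these shifts was not tested. With 2 animals in a group, the spread is borrowed from the other groups. Genes below about 1 CPM, such as ADRA2B and PSCA at 5 days, rest on few reads.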

Other observations

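ZBTB16 and NNMT, both induced at 6 h, were adjacent in the reference annotation, with 0 protein-coding genes between them. Of the 34 called genes with a symbol, no other pair had 5 or fewer protein-coding genes between them.

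The fit of the 6 Beta-Ac libraries alone called 2 genes that were not among the 46, ENSMMUG00000009795 and ALG1, an enzyme of N-glycan assembly.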
